A study of Mus musculus with 388 samples.

Results

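The immediate early transcription factors described here are Fos, Fosb, Fosl2, Jun, Junb, Jund, Atf3, Egr1, Ier2 and Nr4a1. They were found in the deposited count table by their symbols, all 10 of them, among 25000 genes. The study sequenced RNA of single bone marrow stromal cells from C57BL/6 mice aged 2 months. The mice of both groups had the genotype KitMerCreMer; R26tdTomato, which is a Cre recombinase made under the control of Kit and active only with tamoxifen, together with a red fluorescent reporter that Cre switches on. Both groups received tamoxifen before birth, at E12.5 and E14.5, and both were sorted as CD45-, Ter119-, CD31- and PDGFRα+, a gate that keeps stromal cells and removes blood, erythroid and endothelial cells. Tomato+ cells descend from fetal cells in which the reporter was switched on, and Tomato- cells do not carry the red label, which limits the comparison to cells marked in that fetal window.

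Immediate early genes are transcribed within minutes of a signal, from factors that are already in the cell, and their messages are short-lived. Fos and Jun family proteins pair through leucine zippers to form AP-1, which binds DNA at the genes of the later response, and Atf3 is a stress-induced zipper protein that can join or oppose them. Egr1 is a zinc finger factor, Nr4a1 an orphan nuclear receptor and Ier2 a small nuclear protein induced by growth factors. In tissues taken apart into single cells these genes are also known to respond to the dissociation itself.

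The 388 cells have titles that name 2 orders, split into 8 sets, with no word on what either stands for. Order 1 holds 94 Tomato+ cells in set P1, 5 in P2 and 40 in P3, beside 60 Tomato- cells in set N2. Order 2 holds 24 Tomato+ cells in each of its sets P1 and P2, beside 71 Tomato- cells in N1 and 70 in N2. The labels name no animal, so each group counts as 1 sample, no test between groups was possible, and all intervals cover counting error only. The median total was 725276 counts in Tomato+ cells and 637863 in Tomato- cells. After removal of 2 shallow Tomato+ cells of set P3, 386 cells were left. Lepr, the leptin receptor that defines this stroma, had 5 or more counts in 386 of 386 cells, and 14 of 15 stroma markers did so in over 50% of cells. The blood cell gene Ptprc (CD45) or the endothelial gene Pecam1 (CD31) had 5 or more counts in 13 Tomato+ cells and in 22 Tomato- cells. At this depth 5 counts of Lepr do not tell stroma from blood cells. The 12 cells with 5 or more counts of Ptprc also reached them, with a low median Lepr level that is given below.

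Proximal promoters of 6 of the genes are shown first, since these genes move together in part and the cyclic AMP response element, in which the letters TGACG are the core, is a textbook entrance of signals to this class of gene. RefSeq windows on GRCm38.p6 were at hand for 8 of the 10 genes, and not for Egr1 and Ier2. The windows hold the 250 bases before the annotated start, read 5′ to 3′ on the gene's strand, and lie at chr12:85473640-85473889 (Fos, plus strand), chr7:19310046-19310295 (Fosb, minus strand), chr8:84978749-84978998 (Junb, minus strand), chr15:101266596-101266845 (Nr4a1, plus strand), chr1:191183334-191183583 (Atf3, minus strand) and chr4:95052223-95052472 (Jun, minus strand). The start is that of RefSeq and need not be the edge of the gene in GENCODE, whose positions are given below. The windows of Nr4a1 and Atf3 lie inside those positions, as does that of Fosl2, which is not shown. The Fosb window overlaps the edge of its gene. The Jund window, also not shown, ends at chr8:70697738, apart from its gene, which begins at chr8:70698949. Capitals mark TGACG on either strand (CGTCA on the other), and in Jun they mark TGACATCA.
Fos: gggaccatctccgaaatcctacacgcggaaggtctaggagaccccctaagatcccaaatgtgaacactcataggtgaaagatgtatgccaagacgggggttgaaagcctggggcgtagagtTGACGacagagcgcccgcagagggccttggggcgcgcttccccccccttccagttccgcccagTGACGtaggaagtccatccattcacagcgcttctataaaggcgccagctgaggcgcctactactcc
Fosb: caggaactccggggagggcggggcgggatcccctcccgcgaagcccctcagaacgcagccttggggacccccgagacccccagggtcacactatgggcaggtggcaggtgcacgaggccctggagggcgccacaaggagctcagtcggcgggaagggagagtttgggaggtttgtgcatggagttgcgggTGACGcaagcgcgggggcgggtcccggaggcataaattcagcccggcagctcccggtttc
Junb: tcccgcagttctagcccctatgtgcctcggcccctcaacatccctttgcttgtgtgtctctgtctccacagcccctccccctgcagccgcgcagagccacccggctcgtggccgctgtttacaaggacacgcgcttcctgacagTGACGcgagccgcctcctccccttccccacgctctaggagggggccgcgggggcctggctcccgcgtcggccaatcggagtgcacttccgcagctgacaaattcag
Nr4a1: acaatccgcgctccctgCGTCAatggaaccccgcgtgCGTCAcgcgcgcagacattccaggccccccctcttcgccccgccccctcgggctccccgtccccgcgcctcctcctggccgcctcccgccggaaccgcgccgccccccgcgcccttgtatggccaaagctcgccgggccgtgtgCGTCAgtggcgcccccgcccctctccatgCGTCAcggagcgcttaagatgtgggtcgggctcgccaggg
Atf3: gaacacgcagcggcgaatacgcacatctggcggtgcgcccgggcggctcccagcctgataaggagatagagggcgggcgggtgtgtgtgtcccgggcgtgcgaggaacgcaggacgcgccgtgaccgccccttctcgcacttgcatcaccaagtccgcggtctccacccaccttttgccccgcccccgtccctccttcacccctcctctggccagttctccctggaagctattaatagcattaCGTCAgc
Jun: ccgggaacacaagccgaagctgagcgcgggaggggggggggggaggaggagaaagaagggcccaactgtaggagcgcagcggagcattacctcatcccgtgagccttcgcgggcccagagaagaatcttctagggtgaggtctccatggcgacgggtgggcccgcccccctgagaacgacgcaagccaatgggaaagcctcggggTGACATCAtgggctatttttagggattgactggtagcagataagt
TGACG or its complement was present in 5 of the 8 windows (Fos, Fosb, Junb, Nr4a1 and Atf3) and in 17.8% of 32851 RefSeq windows of the same length. Nr4a1 held 4 matches and Fos 2, the nearer one in Fos beginning 62 bases before the start. TGACATCA, searched on both strands, was in the window of Jun and in 2.93% of all windows. The full palindrome TGACGTCA, which contains TGACG, was in none of the 8 and in 1.55% of all windows. The AP-1 motif TGACTCA was also in none of the 8 and in 4.46% of all windows, and the CArG box, bound by serum response factor, was in none of the 8 and in 1.47%. These are matches of letters in a short window and say nothing of binding in these cells. Sites outside the 250 bases, and any of Egr1 and Ier2, were not searched.

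Fos, the founding member of its family, was the most abundant of the 10 genes per length of transcript. Its gene lies at chr12:85473890-85477273 on the plus strand in GENCODE M21 on GRCm38, the annotation used for all gene positions here. Levels below are CPM, the counts of a gene summed over the cells of a set and scaled to the sum of all genes. Fos reached 9096, 2023 and 7820 CPM in the Tomato+ sets of order 1 (P1, P2 and P3, in that order here and below) and 10159 and 10509 CPM in the Tomato+ sets of order 2. It reached 9923 CPM in the Tomato- set of order 1 and 4265 and 6676 CPM in the Tomato- sets of order 2. In order 2 both Tomato+ sets were above both Tomato- sets, while in order 1 the Tomato- set was above all 3 Tomato+ sets. Per kilobase of exon, Fos had a median of 3596 CPM per kb over the 8 sets and ranked first in 8 of 8.

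Fosb (chr7:19302696-19310051, minus strand) and Fosl2 (chr5:32135801-32157842, plus strand) encode the Fos relatives FosB and Fra-2. Fosb had 1174, 24.8 and 279 CPM in the Tomato+ sets of order 1 and 2795 and 3010 CPM in those of order 2, against 622 CPM in the Tomato- set of order 1 and 2920 and 2410 CPM in those of order 2. All 4 sets of order 2 were thus above all 4 sets of order 1, in either group. Fosl2 was low throughout, at 96.9, 1.38 and 4.85 CPM in the Tomato+ sets of order 1 and 85.3 and 60.2 CPM in those of order 2, against 91.7 CPM in the Tomato- set of order 1 and 88.9 and 87.1 CPM in those of order 2. In order 1 Fosl2 was carried by few cells: it had no count in 56 Tomato+ cells and in 19 of 60 Tomato- cells, and 1 cell held 57.7% of its counts in the Tomato- set.

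Jun, Junb and Jund encode the other side of the AP-1 pair. Jun (chr4:95049034-95052222, minus strand) had 3355, 350 and 860 CPM in the Tomato+ sets of order 1 and 2284 and 3231 CPM in those of order 2, against 3152 CPM in the Tomato- set of order 1 and 2519 and 2775 CPM in those of order 2. Junb (chr8:84974484-84978718, minus strand), whose protein is a weaker activator that can restrain Jun, had 1539, 24.3 and 320 CPM in the Tomato+ sets of order 1 and 3129 and 3633 CPM in those of order 2, against 580 CPM in the Tomato- set of order 1 and 2901 and 2788 CPM in those of order 2. Junb, like Fosb, was higher in each set of order 2 than in any set of order 1, and Jun was not. Jund (chr8:70698949-70700616, plus strand), the member of the family known for steady expression, stayed between 37.3 and 94.8 CPM in the Tomato+ sets and between 42.7 and 54.4 CPM in the Tomato- sets. Jun, Junb and Jund each overlap a gene on the opposite strand (Junos, Prdx2 and Gm11175), as does Atf3 (Gm24748), and without a stated strand their reads cannot be told apart. Jund was also the gene of the 10 whose deposited values were often not whole, which leaves its counts less certain.

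Egr1 (chr18:34859823-34864984, plus strand), a direct target of growth factor signalling, had 4003, 1371 and 2543 CPM in the Tomato+ sets of order 1 and 4214 and 5608 CPM in those of order 2. Its Tomato- values were closer together, at 3481 CPM in order 1 and 3284 and 3418 CPM in order 2. Nr4a1 (chr15:101254269-101274795, plus strand) had 1303, 133.1 and 598 CPM in the Tomato+ sets of order 1 and 3070 and 4331 CPM in those of order 2, against 874 CPM in the Tomato- set of order 1 and 3658 and 2925 CPM in those of order 2. Like Fosb and Junb, it was higher in each set of order 2 than in any set of order 1, and Atf3 showed the same. Atf3 (chr1:191170296-191218039, minus strand) had 252, 47.3 and 2.64 CPM in the Tomato+ sets of order 1 and 491 and 376 CPM in those of order 2, against 147.6 CPM in the Tomato- set of order 1 and 548 and 308 CPM in those of order 2. Ier2 (chr8:84661331-84662852, minus strand) had 289, 5.97 and 291 CPM in the Tomato+ sets of order 1 and 414 and 619 CPM in those of order 2, against 361 CPM in the Tomato- set of order 1 and 329 and 356 CPM in those of order 2. For all 10 genes the range of the Tomato+ sets overlapped that of the Tomato- sets, and the set P2 of order 1 holds 5 cells.

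**Figure D1:**
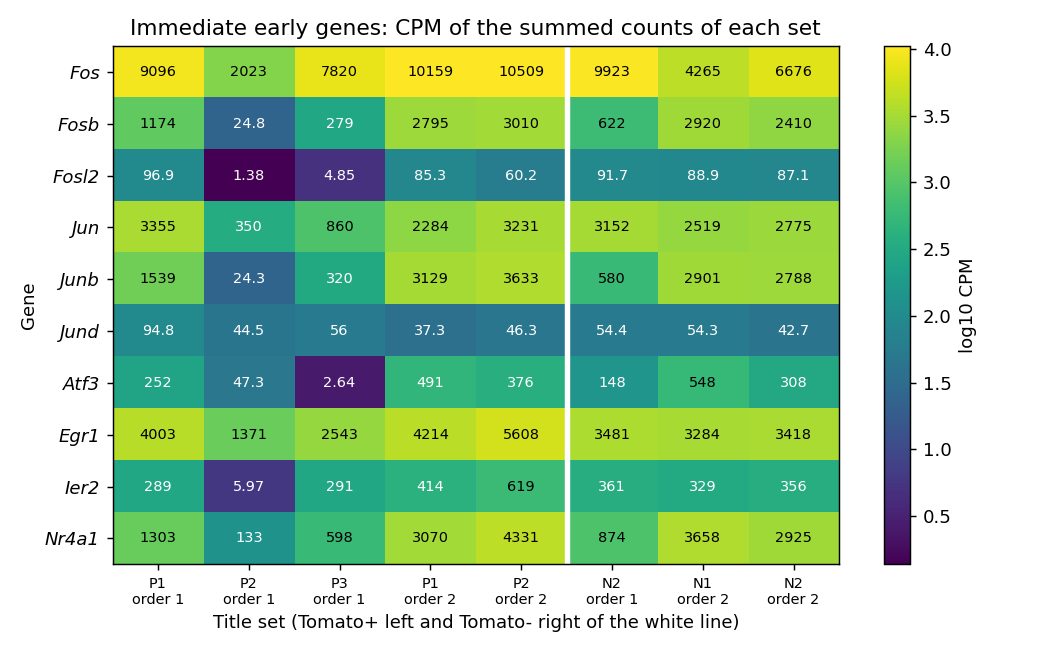
Level of each of the 10 genes (rows) in each title set (columns), as log10 CPM of the summed counts in colour, with Tomato+ sets left and Tomato- sets right of the white line. Fos runs from 2023 to 10509 CPM and Atf3 from 2.64 to 548 CPM; Fosb, Junb and Nr4a1 are higher in order 2 in either group.

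Levels can be set against each other only per length. Below Fos, the medians over the 8 sets were 940 CPM per kb for Junb, 830 for Jun, 769 for Egr1, 602 for Nr4a1, 287 for Fosb, 225 for Ier2, 130 for Atf3, 30.2 for Jund and 8.90 for Fosl2. Junb, Jun, Egr1 and Nr4a1 had ranges over the sets that overlap, so their order among each other differs from set to set. In single cells Fos was the highest of the 10 per length in 237 of 386 (61.4%), Junb in 49, Nr4a1 in 36, Jun in 24 and Egr1 in 19.

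The comparison of Tomato+ with Tomato- cells asks whether marrow stroma descending from Kit-expressing fetal cells differs in adult life from its neighbours under the same sort. Within each order the CPM of the summed counts was compared as the log2 ratio of CPM + 1, and a gene was called when it differed by more than 1.5-fold in the same direction in both orders. By this rule 0 of the 10 genes were higher in Tomato+ cells and 0 lower, where 3.24% of 6547 genes tested were called higher and 4.54% lower. All 10 passed the filter on low values (20 CPM and a count in 20% of cells in the higher group). In order 1 alone, Fosb, Junb and Jund were over 1.5-fold higher and none lower, where 28.2% of genes were higher and 23.8% lower by that measure. In order 2 alone, Fos and Ier2 were over 1.5-fold higher and none lower, where 8.78% of genes were higher and 14.3% lower. With all cells of a group summed over both orders, 1 gene (Jund, 0.60) was over 1.5-fold higher and 2 (Fosb, -0.61, and Nr4a1, -0.63) lower on the log2 scale, where 14.8% of genes were higher and 15.6% lower; the groups hold unequal shares of the orders in that sum.

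Junb had the largest averaged ratio of the 10. Its CPM was 1232 in Tomato+ and 580 in Tomato- cells of order 1 (log2 ratio 1.08), and 3416 in Tomato+ and 2838 in Tomato- cells of order 2 (log2 ratio 0.27). Fos had 8667 CPM in Tomato+ and 9923 CPM in Tomato- cells of order 1 (log2 ratio -0.20), but 10359 CPM in Tomato+ and 5606 CPM in Tomato- cells of order 2 (log2 ratio 0.89). The Fos ratio therefore had opposite signs in the orders, as had those of Jun (-0.21 and 0.09), Jund (0.63 and -0.17) and Ier2 (-0.34 and 0.63). Fosb (0.61 and 0.15), Junb, Atf3 (0.37 and 0.04), Egr1 (0.06 and 0.58) and Nr4a1 (0.36 and 0.22) were above 0 in both, which makes 5 of 10, against 27% of all genes tested. Fosl2 was at -0.30 in each order. The median of the averaged log2 ratios was 0.26 over the 10 genes and 0.01 over all genes tested.

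The values in order 1 rested on the Tomato+ set P1. Without its 94 cells the log2 ratio in order 1 was -0.97 for Junb, -1.26 for Fosb, -1.94 for Jun, -0.64 for Nr4a1, -0.51 for Egr1 and -0.43 for Fos. Atf3 then stood at -4.37 and Fosl2 at -4.05, and the median of the averaged ratios over the 10 genes was -0.28. Single cells weighed on the Tomato- side: without the cell with the most counts of the gene in each group and order, the ratio of Fosl2 in order 1 was 0.76 and that of Ier2 0.14. The set P1 was also deeper than the Tomato- set N2 of the same order, with a median of 848562 counts against 500702, and had a lower median mitochondrial share, 1.32% against 2.14%. With 5 counts asked for, 58 of the 94 cells of P1 had reads of Y-linked genes and none of Xist, which is made from an inactive X chromosome, while 0 had Xist alone. In set N2 of order 1, 6 of 60 cells had Y-linked reads alone and 19 had Xist alone, and in P3 it was 1 and 20 of 38 cells. In order 1 a difference between the groups therefore cannot be told apart from one between male and female cells where it rests on P1. In order 2 the 2 Tomato+ sets (19 and 21 cells) and the 2 Tomato- sets (52 and 53 cells) had mostly Y-linked reads. Xist alone was found there in 0 of 24 cells of P1, 1 of 24 of P2, 1 of 71 of N1 and 10 of 70 of N2. The part of this difference in the ratios of order 2 was not tested. The part of depth and mitochondrial share in the ratios was not tested.

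**Figure D2:**
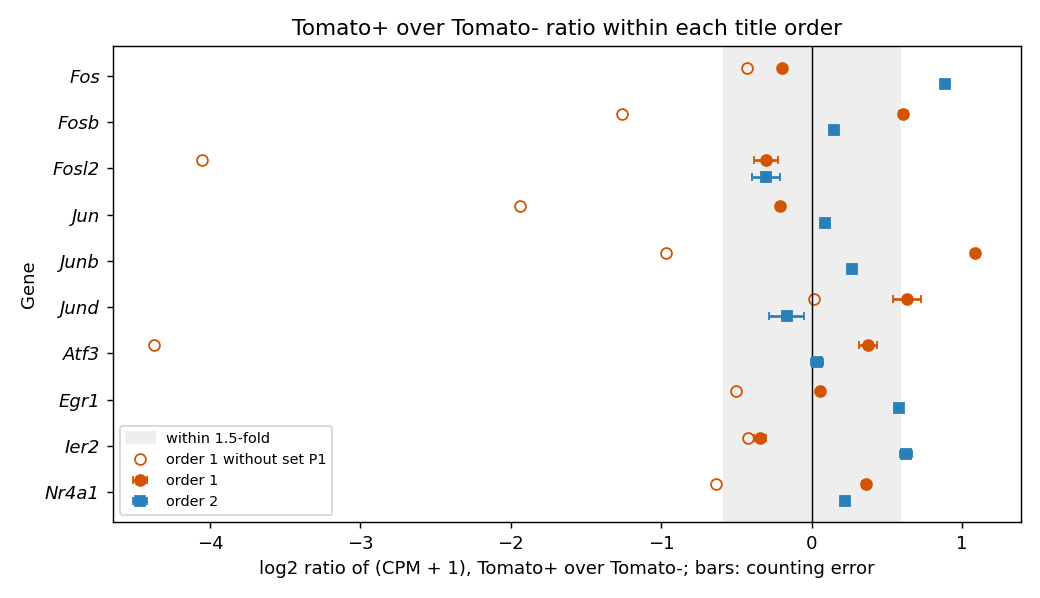
Log2 ratio of (CPM + 1), Tomato+ over Tomato-, for each gene within order 1 and order 2, with bars for counting error and the grey band for changes within 1.5-fold; open circles give order 1 without its set P1. No gene lies beyond the band on the same side in both orders, and the open circles of Atf3 and Fosl2 lie at -4.37 and -4.05.

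In order 1 the table's column names carry 12 codes, read here as library codes, although the labels do not say what they stand for. Of these, 7 hold cells of both groups (83 Tomato+ cells, all of set P1, and 60 Tomato- cells), so that the groups can be compared within a code. Junb was higher in Tomato+ cells in 7 of 7 codes, with log2 ratios between 0.76 and 4.45 (median 1.86). Nr4a1 was higher in 7 of 7, between 0.21 and 4.06 (median 0.88). Both upper ends come from a code with 2 Tomato- cells. Fosl2 and Jund were higher in 6 codes, Fos and Fosb in 5, Egr1 and Ier2 in 4, Atf3 in 3 and Jun in 2. The median over cells of Fosb, Junb, Jund and Nr4a1 was higher in Tomato+ cells in 7 of 7. Over these codes together the log2 ratio was 1.40 for Junb, 0.82 for Fosb, 0.63 for Nr4a1, 0.22 for Egr1 and -0.15 for Fos. For order 2, with the sets paired by their number, which is an assumption, Fos gave 1.25 and 0.65 (sets numbered 1 and sets numbered 2), Egr1 0.36 and 0.71 and Junb 0.11 and 0.38, while Fosb (-0.06 and 0.32), Nr4a1 (-0.25 and 0.57), Jun (-0.14 and 0.22), Jund (-0.53 and 0.12) and Atf3 (-0.16 and 0.28) changed sign, 5 of the 10 genes. The codes are shares of the same Tomato+ set and the same Tomato- set, with the difference in sex-linked reads given above, and are not replicates.

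The orders differed for some genes in both groups and by every measure taken. From order 2 over order 1, the summed level of Nr4a1 was 3.39-fold in Tomato+ and 3.72-fold in Tomato- cells, and that of Fosb 3.08-fold in Tomato+ and 4.24-fold in Tomato- cells. The fold was 2.77 in Tomato+ and 4.89 in Tomato- cells for Junb, and 2.22 in Tomato+ and 2.81 in Tomato- cells for Atf3. For the other 6 genes the folds of the summed levels, in Tomato+ and Tomato- cells, were 1.87 and 0.954 for Ier2, 1.38 and 0.965 for Egr1, 1.20 and 0.565 for Fos, 1.04 and 0.844 for Jun, 0.958 and 0.958 for Fosl2 and 0.500 and 0.878 for Jund. Several of these rested on 1 set or 1 cell. Without set P1 of order 1 the Tomato+ fold was 3.45 for Jun, 15.5 for Fosl2 and 2.04 for Egr1, and without the cell with the most counts of the gene in each group and order the Tomato- fold was 2.14 for Fosl2 and 1.43 for Ier2. The median cell was higher in order 2 for all 10 genes in both groups, by 1.57-fold in Tomato+ and 3.66-fold in Tomato- cells for Jun and by 2.26-fold in Tomato+ and 1.32-fold in Tomato- cells for Fos. These alternatives were chosen after the values were seen. An order cannot be told apart from its handling, its library preparation or its sequencing. The orders also differed in the median mitochondrial share, which was 0.689% in Tomato+ and 0.736% in Tomato- cells of order 2 and 1.41% in Tomato+ and 2.14% in Tomato- cells of order 1, in the sex-linked reads given above and in the summed CPM of 14 heat shock genes. The last was 34150 in Tomato+ and 30777 in Tomato- cells of order 2, and 18107 in Tomato+ and 20098 in Tomato- cells of order 1, and the part of any of these was not tested.

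Single cells differed far more than sets. Fos ranged in Tomato+ cells from 22.5 to 46851 CPM in order 1 (median 3477) and from 60.045 to 31405 CPM in order 2 (median 7846). In Tomato- cells it ranged from 42.8 to 68667 CPM in order 1 (median 2588) and from 31.4 to 33659 CPM in order 2 (median 3409). The median cell of the Tomato+ groups was thus above that of the Tomato- groups in both orders, although the summed level in order 1 was lower. Egr1 showed the same order of medians, with 1811 CPM in Tomato+ and 1014 CPM in Tomato- cells of order 1 and 4353 CPM in Tomato+ and 2926 CPM in Tomato- cells of order 2. The median cell had 752 CPM of Junb in Tomato+ and 100.7 CPM in Tomato- cells of order 1, but 2120 CPM in Tomato+ and 2465 CPM in Tomato- cells of order 2. For Nr4a1 the medians were 233 CPM in Tomato+ and 54.6 CPM in Tomato- cells of order 1, and 2090 CPM in Tomato+ and 2156 CPM in Tomato- cells of order 2.

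Within order 1, the Tomato+ sets P1 and P3 differed from each other more than the 2 groups did in their median cells. The median cell had 5670 CPM of Fos in P1 and 679 CPM in P3, with the Tomato- set N2 between them at 2588 CPM. The same ranking held for Junb (1210 CPM in P1 and 32.6 CPM in P3, with N2 at 100.7 CPM), Nr4a1 (466 CPM in P1 and 16.5 CPM in P3, with N2 at 54.6 CPM), Jun (2353 CPM in P1 and 100.5 CPM in P3, with N2 at 582 CPM) and Egr1 (2582 CPM in P1 and 511 CPM in P3, with N2 at 1014 CPM). In summed counts P1 was 95.4-fold above P3 for Atf3 and 19.97-fold for Fosl2, but 1.16-fold for Fos and 0.991-fold for Ier2. The cells of P3 had a median of 3182 genes with a count and those of P1 4524, and P1 and P3 also differed in the sex-linked reads given above; the part of either in the levels was not tested.

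**Figure D3:**
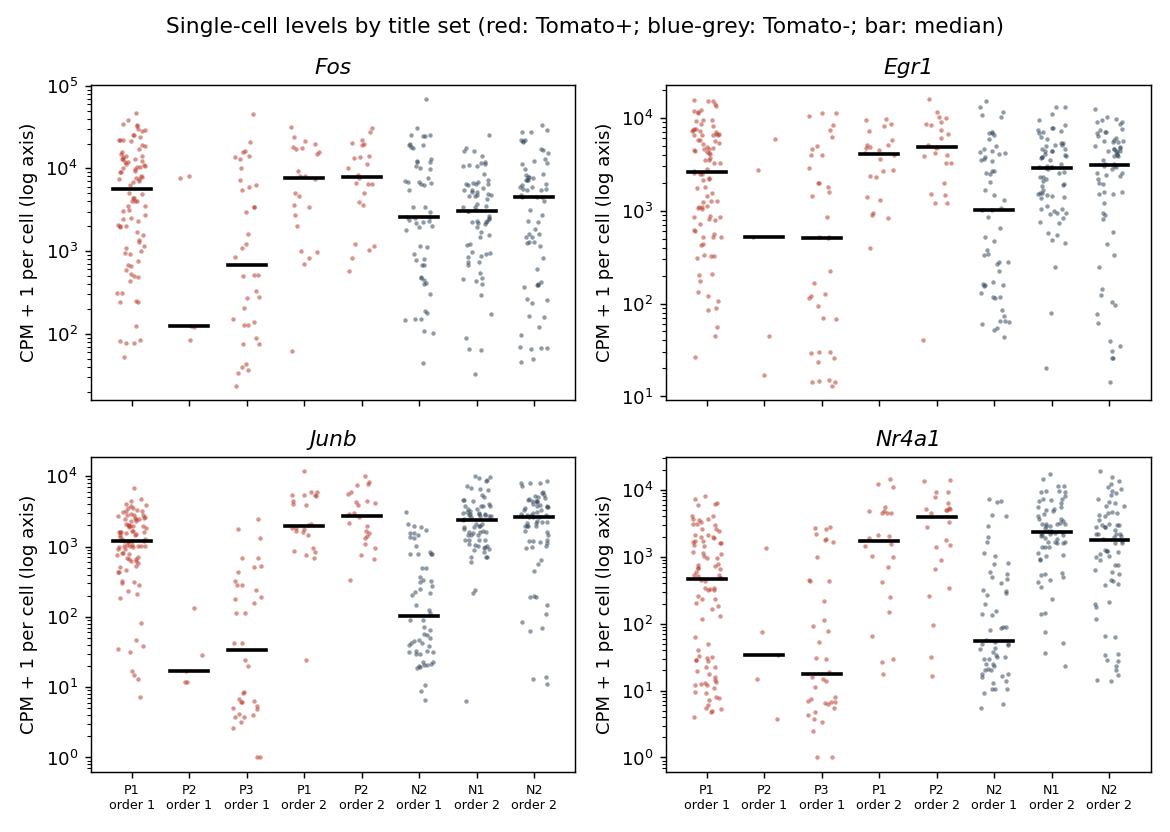
CPM + 1 in each of the 386 cells on a log axis, by title set, with Tomato+ sets in red on the left and Tomato- sets in blue-grey on the right; the bars are medians. For each gene shown, the quartiles of cells by group lie further apart on the log axis in order 1 than in order 2. The full range is not wider in every set of order 1: Junb runs from 5.67 to 3092 CPM in N2 of order 1 and from 5.41 to 10125 CPM in N1 of order 2. The medians of set P3 of order 1 lie below those of P1, for Fos at 679 against 5670 CPM.

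Shares of cells with a gene carry less than levels here. With 5 counts or more asked for, Fos was found in 100% of Tomato+ and of Tomato- cells in either order. Atf3 was found in 48 Tomato+ cells of order 1 (35.04%, exact Clopper-Pearson 95% interval 27.1% to 43.6%) and 19 of 60 Tomato- cells (31.7%, 20.3% to 44.96%). In order 2 it was found in 31 of 48 Tomato+ cells (64.6%, 49.5% to 77.8%) and 98 Tomato- cells (69.5%, 61.2% to 76.97%). In order 1 Jund was found in 59.9% of Tomato+ cells (51.1% to 68.1%) and 31.7% of Tomato- cells (20.3% to 44.96%), and Junb in 85.4% of Tomato+ cells (78.4% to 90.8%) and 100% of Tomato- cells (from 94.04%). Such intervals describe the counting of these cells and do not compare the groups, since cells are not replicates. Cells may share a pool, taken here as the code in the column name or, where there is none, as the title set. Even Fos was at or below 1% of the pool's highest count in some cells: it was above that in 80% of Tomato+ and 76.6% of Tomato- cells.

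The 10 genes together took a median of 1.75% of a cell's counts and up to 12.03%. Their summed level had a median of 12886 CPM in Tomato+ and 7321 CPM in Tomato- cells of order 1, and of 28186 CPM in Tomato+ and 18873 CPM in Tomato- cells of order 2. In order 1 the median was 19596 CPM in P1, but 2055 CPM in P2 and 3061 CPM in P3, both below the Tomato- set. Of the summed counts of order 1 the genes took 1.89% in Tomato+ and 1.93% in Tomato- cells. The 12 cells with 5 or more counts of Ptprc, with a median sum of 1227 CPM, are all Tomato- cells of order 2. For the summed level, the 90th percentile of cells was 46.7-fold above the 10th in Tomato+ and 61.2-fold in Tomato- cells of order 1. It was 4.72-fold above in Tomato+ and 6.44-fold in Tomato- cells of order 2. By set the same fold was 11.1, 24.8 and 97.3 in the Tomato+ sets of order 1 and 5.64 and 3.04 in those of order 2, against 61.2 in the Tomato- set of order 1 and 3.87 and 27.96 in those of order 2. The Tomato- set N2 of order 2 was thus more spread than the Tomato+ set P1 of order 1. The lowest sums of that N2 set were mostly in cells with 5 or more counts of Ptprc, and its 10th percentile was 1590 CPM. The spread of the set without those cells was not computed. The cell with the highest sum, a Tomato- cell of set N2 of order 1 with 120324 CPM, had 68667 CPM of Fos, 20185 of Jun and 15057 of Egr1, but 3.92 CPM of Atf3 and 2.62 CPM of Fosl2. All 10 genes had 5 or more counts in 74 of 386 cells (19.2%).

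Across cells the genes moved together to different degrees. Spearman correlations of log2(CPM + 1), centred on the title set over 386 cells, had a median of 0.26 over the 45 pairs (0.28 in order 1 and 0.19 in order 2). These cells differ in depth and may share libraries, so the correlations are given as descriptions. Fos and Egr1 were the closest pair, at 0.75 (0.73 in order 1 and 0.75 in order 2). Jun followed Egr1 at 0.60 and Fos at 0.59, and Ier2 followed Fos at 0.47. Another run of pairs joined Fosb with Nr4a1 at 0.51 and Junb with Nr4a1 at 0.47, and in order 2 Atf3 with Junb at 0.44 and Atf3 with Nr4a1 at 0.43. Fos and Nr4a1 were at 0.26 (0.30 in order 1 and 0.16 in order 2), and Fosb and Ier2 at 0.09. Junb had the highest median with the other 9, 0.46, and Ier2 the lowest, 0.085. Fosl2 was at 0.24 or less with every other gene. With cells thinned to 150000 counts the median over pairs was 0.26, and without the cells in which Ptprc or Pecam1 reached 5 counts it was 0.22. Without those cells the median was 0.29 in order 1 and 0.15 in order 2. Pairs in order 2 then moved in both directions. Fos and Nr4a1 were at -0.03 and Fos and Jun at 0.31, down from 0.43, while Fos and Ier2 were at 0.62, up from 0.55.

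**Figure D4:**
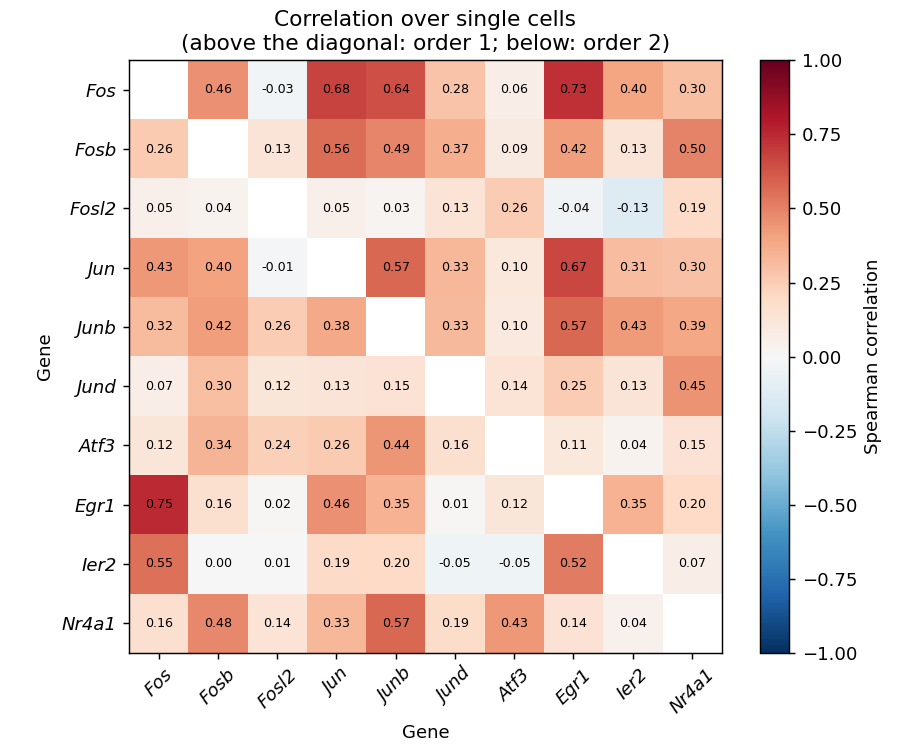
Spearman correlation in colour for each pair of the 10 genes (both axes) over single cells, centred on the title set, with order 1 above and order 2 below the diagonal. Fos and Egr1 form the strongest pair in either order (0.73 and 0.75), and Fosl2 is pale against all others.

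The mean of the scaled levels of the 10 genes in a cell was compared with each of 6264 other genes. Zfp36, whose protein destabilises the messages of early response genes, was the most alike, at 0.65 in order 1 and 0.45 in order 2. Dusp1, a phosphatase that switches off MAP kinases, was at 0.51 in order 1 and 0.41 in order 2, and Nfkbia, the inhibitor of NF-kB, at 0.49 in order 1 and 0.38 in order 2. Socs3 (0.46 in order 1 and 0.36 in order 2), an inhibitor of cytokine receptors, Ppp1r15a (0.46 and 0.36 in the same orders), Gadd45b (0.41 and 0.49) and Ier3 (0.46 and 0.38) are stress and early response genes. Slc38a2 (0.42 and 0.46) encodes an amino acid transporter and Fscn1 (0.36 and 0.35) an actin bundling protein. The median over all 6264 genes was 0.01 and the 95th percentile 0.17. Least alike were Cbx3 (-0.18 in order 1 and -0.23 in order 2), Luc7l3 (-0.17 and -0.23) and Rnaseh2a (-0.17 and -0.18). The same mean had a correlation of 0.09 in order 1 and 0.06 in order 2 with the log2 total of a cell, and of -0.23 in order 1 and -0.06 in order 2 with its mitochondrial share. With the level of Lepr it was 0.13 in order 1 and 0.30 in order 2, and with the summed stroma markers -0.05 and 0.20 in the same orders. With the number of genes with a count it was 0.20 in order 1 and -0.14 in order 2.

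Of 27 other immediate early factors with a count, 23 passed the filter and 1, Id2, was called higher in Tomato+ cells, with none lower, where 3.24% of all genes tested were called higher and 4.54% lower. For this list, 1 of 23 is near that share. Id2, an inhibitor of helix-loop-helix factors, had 87.7 CPM in Tomato+ and 51.8 CPM in Tomato- cells of order 1 and 205.8 CPM in Tomato+ and 100.3 CPM in Tomato- cells of order 2, where 1 cell held 45.2% of its Tomato+ counts. Of 24 feedback inhibitors 22 passed the filter, 2 were called higher and none lower. These were Gadd45b, with 272 CPM in Tomato+ and 108.9 CPM in Tomato- cells of order 1 and 1224 CPM in Tomato+ and 789 CPM in Tomato- cells of order 2, and the pseudokinase gene Trib1, with 255 CPM in Tomato+ and 43.7 CPM in Tomato- cells of order 1 and 326 CPM in Tomato+ and 215 CPM in Tomato- cells of order 2. None of 13 zipper partners and antagonists, 15 upstream kinases and promoter factors or 13 heat shock genes that passed the filter was called in either direction. Of 12 secreted early products 1 was called higher and 1 lower. The chemokine gene Ccl7 had 1579 CPM in Tomato+ and 615 CPM in Tomato- cells of order 1 and 591 CPM in Tomato+ and 391 CPM in Tomato- cells of order 2. Ptgs2, the inducible cyclooxygenase, had 7.88 CPM in Tomato+ and 23.3 CPM in Tomato- cells of order 1, where 1 cell held 98.96% of the Tomato- counts, and 32.7 CPM in Tomato+ and 146.7 CPM in Tomato- cells of order 2. Each of these 5 calls was lost under at least 1 setting chosen after the values were seen. Without the cell with the most counts in each group and order, the log2 ratio in order 2 was 0.36 for Id2 and 0.33 for Ccl7, and that of Ptgs2 in order 1 was 2.23. Without the cells in which Ptprc or Pecam1 reached 5 counts, the ratio in order 2 was 0.54 for Gadd45b and 0.15 for Trib1, and without set P1 that of Gadd45b in order 1 was -1.21. The median correlation with the mean of the 10 genes was 0.25 over the other factors, 0.24 over the feedback inhibitors, 0.20 over the heat shock genes, 0.14 over the secreted products, 0.06 over the zipper partners and 0.01 over the upstream genes.

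Cells that carried blood cell RNA were low in most of the 10 genes. Ptprc had 5 or more counts in 12 cells, all Tomato- and all of order 2, and 42 Tomato+ and 120 Tomato- cells of order 2 had neither Ptprc nor Pecam1 at that level. The median cell with Ptprc had 67.9 CPM of Fos, against 4839 CPM in the cells with neither. The medians were 49.7 against 3807 CPM for Egr1, 76.7 against 2717 CPM for Junb, 42.5 against 2369 CPM for Nr4a1, 22.99 against 2726 CPM for Fosb and 228 against 2234 CPM for Jun. Ier2, at 327 against 269 CPM, and Fosl2, at 45.01 against 29.2 CPM, were not lower in the cells with Ptprc. These cells had a median of 39.4 CPM of Lepr, against 4490 CPM in the cells with neither, and were not shallower, with median totals of 853826 against 644130 counts. The 13 myeloid markers summed to 99.2 CPM in Tomato+ and 15407 CPM in Tomato- cells of order 2, and to 50.8 CPM in Tomato+ and 99.5 CPM in Tomato- cells of order 1. With the cells that reached 5 counts of Ptprc or Pecam1 left out, the median of the averaged Tomato+ over Tomato- log2 ratios of the 10 genes was 0.20, and that of Fos was 0.29.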

How the data were processed

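The deposited values are expected counts per gene and cell, estimates by the authors that need not be whole (4.91% of values above 0 were not), per the file headers and the values. Tools named in the submitters' processing notes are StringTie 1.3.3b, HTSeq 0.6.0 and HISAT, on GRCm38, with no account of their roles. Per the labels' protocols, the whole transcriptome of each cell was amplified after reverse transcription, so counts follow amplification, and no molecular identifiers are mentioned. A few molecules can therefore give many counts in a cell.

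Values were rounded, and cells had to reach 1000 genes and 10000 counts. Table columns were matched by name to a group and title set; 0 columns were left unused. No doublet caller was run. Summed counts of each group or set were scaled to CPM, and ratios are log2 of (CPM + 1), Tomato+ over Tomato-, averaged over the 2 orders; this scale understates changes of low genes. Because the labels name no animal, each group is 1 sample, and no p-value was computed. Intervals are exact Poisson and Clopper-Pearson at 95% and cover counting error only. Named genes were the 10, up to 2 called in each direction from each other list, the 10 most alike and the 3 least alike over cells, by the lower of the correlations within the orders; mitochondrial, ribosomal protein and predicted genes were left out of that ranking. Of the genes this rule names, 1 is not reported here. The genes and lists were chosen with earlier results of these data known. Scripts used python 3.11.15, numpy 2.4.6, pandas 2.3.3 and scipy 1.17.1, and were tested on simulated counts. Gene positions are from GENCODE M21 and promoter windows from RefSeq.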

Additional observations from a re-analysis of the deposited data

Results flagged for a closer look

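For 4 of the 10 genes the Tomato+ over Tomato- log2 ratio had opposite signs in the 2 title orders, and this difference was not tested, since each group is 1 sample in each order. The ratio in order 2 minus that in order 1 was 1.08 for Fos (-0.20 in order 1 and 0.89 in order 2). It was 0.97 for Ier2 (-0.34 in order 1 and 0.63 in order 2). For Jun it was 0.29 (-0.21 in order 1 and 0.09 in order 2), and for Jund it was -0.80 (0.63 in order 1 and -0.17 in order 2). Without the cell with the most counts in each group and order, the ratio of Ier2 in order 1 was 0.14, on the same side of 0 as in order 2, and that of Fos was -0.05.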

How the results depend on the processing

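The median of the averaged log2 ratios over the 10 genes, 0.26 as reported, was 0.32 with the mean of per-cell CPM (all-gene median 0.14), 0.21 with median-of-ratios size factors (all-gene median -0.04), 0.20 without cells with 5 or more counts of Ptprc or Pecam1 and 0.36 without the cell with the most counts of each gene. With all cells summed over both orders it was -0.16, with 1 gene over 1.5-fold higher (Jund, 0.60) and 2 lower (Fosb, -0.61, and Nr4a1, -0.63), where 14.8% of all genes were higher and 15.6% lower. Leaving out each title set in turn gave -0.28 to 0.37, with 0 to 2 genes called higher and 0 lower; the lowest value is without set P1 of order 1, and the count of 2 is without set N2 of order 1, which leaves order 2 alone. Over 23 alternatives the sign was that reported in 23 for Fos and Egr1, 22 for Fosl2, 21 for Fosb, Junb, Jund, Atf3, Ier2 and Nr4a1 and 18 for Jun. Some of these, such as counts left unrounded, hardly moved any ratio. The sign counted is that of the averaged ratio, which for Fos joins -0.20 in order 1 and 0.89 in order 2. The alternatives that leave the members out of the total or drop cells with fewer than 2000 genes were chosen after seeing the data. Within the shared codes of order 1 and the sets of order 2 paired by number, which is an assumption, the median was 0.32. Order 2 weighs more there than in the reported 0.26, since its pairs of sets enter as separate comparisons. Order 1 enters only through set P1 on the Tomato+ side. No paired analysis was possible because the replicate numbers only name cells, so that no fit with them as a block could be made. Ratios of Fosl2 and Ier2 in order 1 rest on few cells.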
